A study of Mus musculus with 24 samples.

Results

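The TGF-β, activin and myostatin pathway was followed through 9 genes in cultured mouse muscle exercised with light. The genes were taken by name from the count and TPM tables. They are the ligand genes Tgfb1, Tgfb2, Tgfb3, Inhba and Mstn, the receptor genes Tgfbr1, Tgfbr2 and Acvr2b, and the antagonist gene Fst. All 9 are among the 56941 genes listed, and 8 of them were among the 13315 genes with enough reads to be tested. Mstn had too few reads to be tested with the rest.

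The tissues were grown from C2C12 mouse myoblasts, an established line that forms twitching myotubes when serum is changed, engineered to carry ChR2::tdTomato, a light-gated cation channel joined to a red fluorescent protein. In each condition the cells lay on a fibrin hydrogel and were differentiated for about 2 weeks in medium that held horse serum at 10% and the growth factor IGF-1 at 50 ng/ml, so every condition shares the channel, the gel, the serum and IGF-1. The 4 conditions, with 6 libraries each, were an unstimulated control and daily light stimulation for 60 min at 1, 4 or 10 Hz, and the comparisons ask how gene expression differs with the frequency of exercise. All tissues come from the same engineered line, the study describes spontaneous twitching in every condition including the control, and the labels name the cell type only as myoblast. In whole-tissue RNA, fewer cells of a type and less RNA per cell cannot be told apart.

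TGF-β, activin and myostatin are secreted dimers that bind a type II receptor kinase, which then switches on a type I receptor kinase. TGF-β uses the type II receptor TGFBR2 with the type I receptor TGFBR1, whereas activin and myostatin use ACVR2A or ACVR2B as type II receptors. The active type I receptor phosphorylates SMAD2 and SMAD3, which enter the nucleus with SMAD4 and change transcription. In skeletal muscle, myostatin and activin limit fiber growth, TGF-β holds back myoblast differentiation and fusion, and follistatin, the product of Fst, captures activin and myostatin outside the cell.

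The sequences below are the 250 bases just before the annotated starts of Tgfbr2 and Inhba, the members that fell, and of Tgfb2, a member that rose. They were read from GRCm39 with starts from GENCODE M39, and are printed 5′ to 3′ on the strand of each gene. Capitals mark matches to the SMAD box CAGACA, the E box CANNTG bound by myogenic factors such as MyoD, the AP-1 site TGANTCA and the TATA box TATAAA, each searched on both strands. The windows lie at chr9:116004801-116005050 on the minus strand for Tgfbr2, chr13:16186123-16186372 on the plus strand for Inhba and chr1:186438295-186438544 on the minus strand for Tgfb2.
Tgfbr2: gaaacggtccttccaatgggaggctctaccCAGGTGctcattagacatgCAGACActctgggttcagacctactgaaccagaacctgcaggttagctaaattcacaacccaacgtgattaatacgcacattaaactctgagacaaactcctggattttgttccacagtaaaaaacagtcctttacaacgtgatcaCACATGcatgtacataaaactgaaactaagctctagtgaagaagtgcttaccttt
Inhba: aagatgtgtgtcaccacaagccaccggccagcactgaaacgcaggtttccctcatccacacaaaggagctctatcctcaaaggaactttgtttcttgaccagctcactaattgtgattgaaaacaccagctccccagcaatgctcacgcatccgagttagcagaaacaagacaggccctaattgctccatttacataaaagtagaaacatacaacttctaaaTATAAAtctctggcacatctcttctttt
Tgfb2: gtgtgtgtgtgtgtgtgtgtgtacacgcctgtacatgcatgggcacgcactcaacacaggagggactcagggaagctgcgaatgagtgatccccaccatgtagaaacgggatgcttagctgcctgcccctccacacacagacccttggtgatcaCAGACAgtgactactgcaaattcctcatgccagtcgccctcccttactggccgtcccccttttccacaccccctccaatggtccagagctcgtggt
The window of Tgfbr2 holds an E box whose first base lies 220 bases before the start, a SMAD box 201 bases before it and a second E box 55 bases before it. The window of Inhba holds a TATA box 28 bases before the start. The window of Tgfb2 holds a SMAD box 96 bases before the start. The window of Acvr2b, the other member that rose, held no match and is not printed. Over the 9 members, a SMAD box was found in 3, an E box in 2, an AP-1 site in 1 and a TATA box in 2. Over the windows of 21770 protein-coding genes, the shares were 16.1%, 66.5%, 6.46% and 12.5%. A match is a string of letters and not a shown binding site.

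Depth ran from 8052369 to 18159144 estimated counts per library, and the biological coefficient of variation over all genes was 14.8%. Of the 10 myotube markers, all were tested, and their summed TPM ran from 12777 to 20677 over the 24 libraries, so the tissues held myotubes although the label reads myoblast. The adipocyte and endothelial lists had no tested gene, and among endothelial markers Emcn was at 0 in all 24 libraries. The leukocyte list was measured only through Cd68. In 3 libraries, 1 Hz replicates 4 and 6 and 4 Hz replicate 3, the median ratio of TPM to CPM was low, at -1.05, -1.05 and -1.19 on the log2 scale, against -0.907 to -0.497 in the other libraries. The ratio also differed by condition. All libraries at 4 Hz, at -1.19 to -0.676, lay below all controls, at -0.618 to -0.499, while 1 and 10 Hz overlapped the controls. Leaving out the 3 libraries does not remove this difference, whose cause was not tested. Calls of the 9 genes that change without these 3 are given beside the values from all libraries.

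Levels of different genes were compared in TPM, which divides by transcript length. In the controls, Inhba had the highest level of the 9, at 136 ± 22.6 TPM (SD, n = 6), and each of its 6 libraries lay above each library of the other members. Tgfbr2 followed at 48.5 ± 2.83 TPM, Tgfb1 at 42.7 ± 1.6, Tgfb3 at 41.3 ± 2.89 and Fst at 39.4 ± 3.82. The controls of Tgfbr2 ran from 44.2 to 51.4 TPM and those of Tgfb1 from 40.5 to 44.6, so that Tgfbr2 was the higher of this pair within each of the 6 libraries and the ranges met only at their ends. Tgfb1 and Tgfb3, and Tgfb3 and Fst, overlapped and do not differ beyond their spread. Tgfb2 stood below them at 18.8 ± 2.36 TPM and Tgfbr1 at 13.9 ± 2.13 TPM. Acvr2b, at 0.765 ± 0.431 TPM, and Mstn, at 0.338 ± 0.123 TPM, were read from few counts and overlapped. The order changed mainly through Tgfbr2: at 4 Hz its 24.9 ± 4.55 TPM came after Tgfb1 (39.2 ± 8.02), Tgfb3 (33.6 ± 3.43) and Fst (30.9 ± 7). At 10 Hz, Tgfbr2 was again level with Tgfb1 and Tgfb3, at 45.1 ± 9.24 TPM against 46.9 ± 1.94 and 42.7 ± 3.44.

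**Figure D1:**
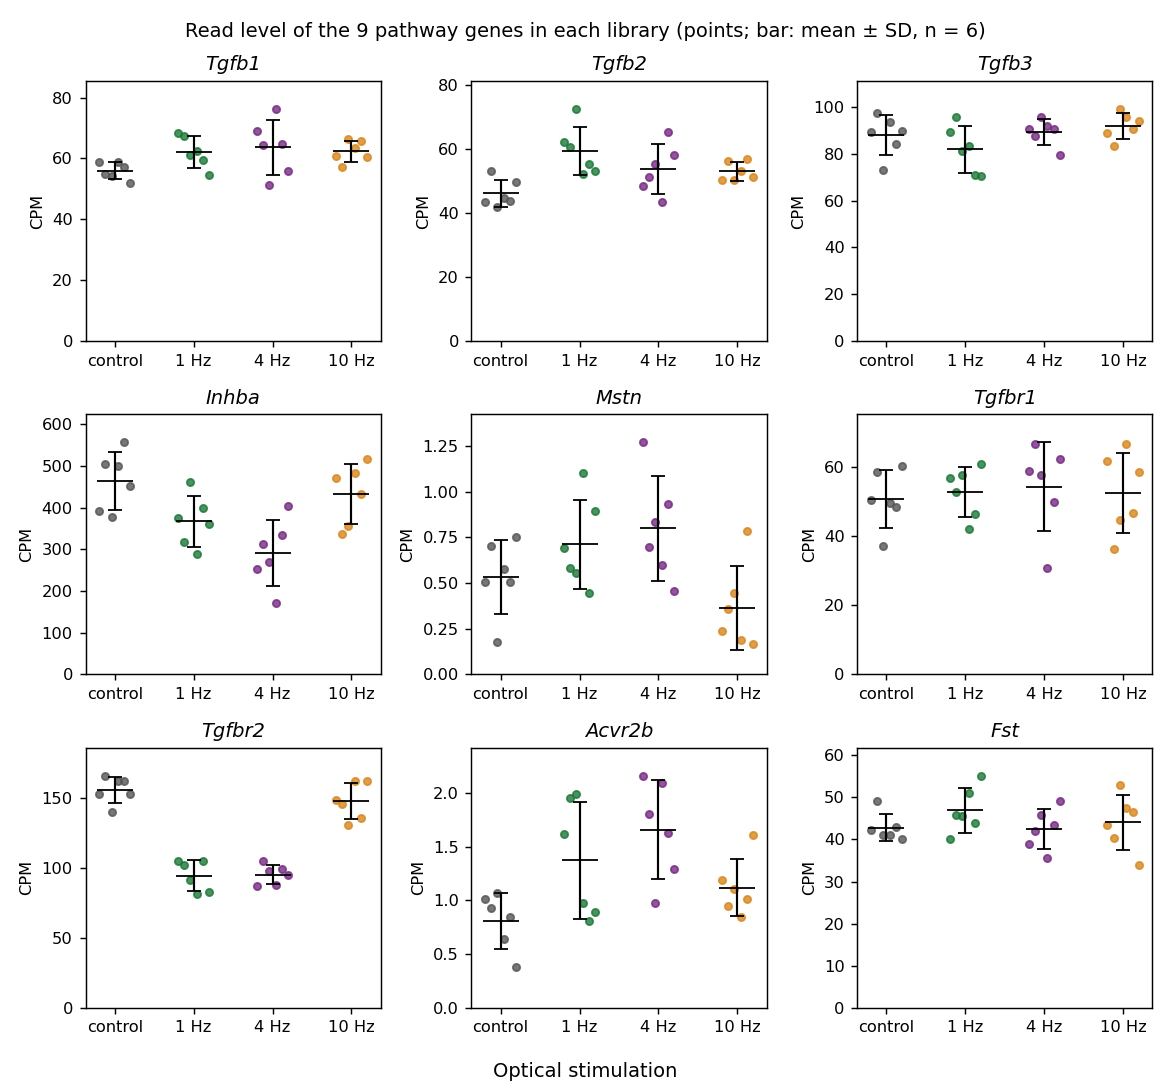
Level of each of the 9 genes in every library, as CPM after TMM scaling (y axis, from 0, with its own range per gene), for the control and for 1, 4 and 10 Hz (x axis). Points are libraries and black bars the mean ± SD of 6; the Tgfbr2 libraries at 1 and 4 Hz sit between 81.2 and 105, below all control and all 10 Hz libraries.

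Tgfbr2, which encodes the type II receptor through which all 3 TGF-β ligands signal, had the smallest adjusted p of the 8 tested members at both 1 and 4 Hz. It fell by 0.72 and 0.71 on the log2 scale at these frequencies and did not pass the test at 10 Hz. The gene lies on the minus strand at chr9:115913361-116004800. Its lowest, median and highest values in the controls were 140, 158 and 166 CPM (counts per 1e+06 after TMM scaling). At 1 Hz they were 81.2, 96.8 and 105 CPM, and at 4 Hz 87.4, 96.4 and 105 CPM. All 12 libraries of 1 and 4 Hz were therefore below every control, while the 10 Hz values of 131, 147 and 162 CPM overlapped the controls. The log2(fold change) was -0.72 (SE 0.0754, 95% confidence interval -0.879 to -0.57) at 1 Hz and -0.71 (SE 0.0755, -0.867 to -0.557) at 4 Hz, with adjusted p of 9.5e-08 and 5.95e-08 (edgeR's quasi-likelihood test, Benjamini-Hochberg over all genes tested). At 10 Hz it was -0.08 (-0.232 to 0.0743, adjusted p = 0.88).

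The frequencies were also compared with each other for Tgfbr2. It was higher at 10 Hz than at 1 Hz by 0.65 (adjusted p = 1.04e-06) and than at 4 Hz by 0.63 (adjusted p = 5.86e-07) on the log2 scale, in 6 of 6 libraries each time. Between 4 and 1 Hz the difference was 0.01, with an interval of -0.143 to 0.168 and adjusted p = 0.961. These comparisons share libraries with those against the control and are not separate evidence. The calls at 1 and 4 Hz held under every alternative tried.

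Within libraries, the ratio of Tgfbr1 to Tgfbr2 moved with Tgfbr2. On the log2 scale of TPM it was -1.81 ± 0.198 (SD, n = 6; -2.11 to -1.55) in the controls and -1 ± 0.295 (-1.33 to -0.532) at 1 Hz, with no overlap. At 4 Hz it was -1.10 ± 0.362, where 1 library, at -1.79, lay within the range of the controls. At 10 Hz it was -1.63 ± 0.212 and overlapped the controls. These ratios are given as a description, without a test.

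**Figure D2:**
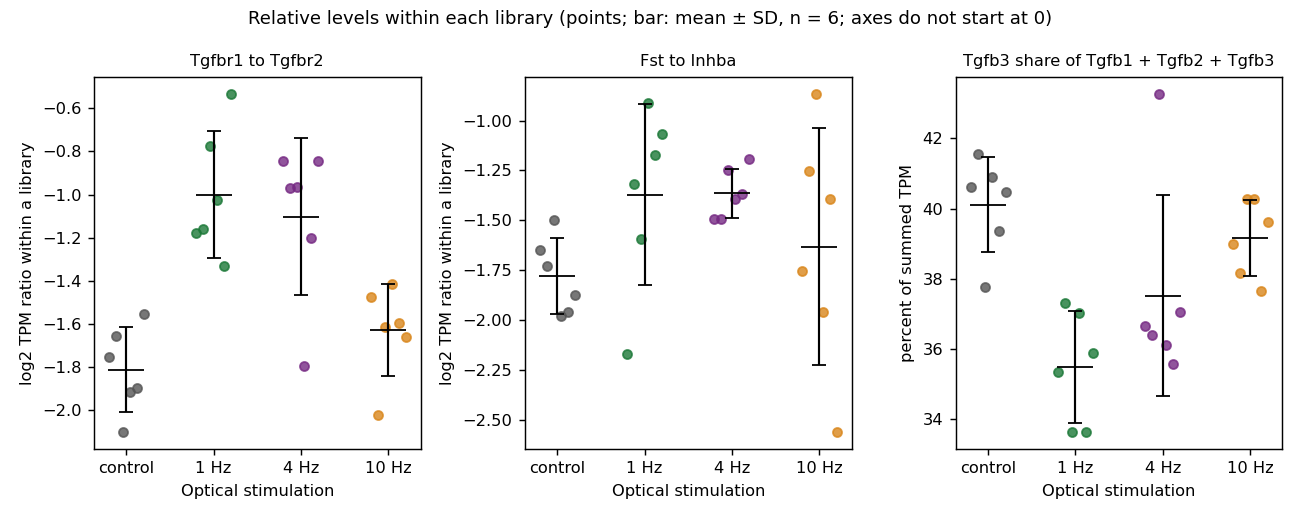
Relative levels within each library (points), with mean ± SD of 6 (black bars), for the control and 1, 4 and 10 Hz. The left and middle panels show log2 TPM ratios of Tgfbr1 to Tgfbr2 and of Fst to Inhba, and the right panel the percent of summed Tgfb TPM that came from Tgfb3; the axes do not start at 0, and the Tgfbr1 to Tgfbr2 ratio at 1 Hz lies above that of every control.

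Markers of undifferentiated muscle cells also differed at 1 and 4 Hz, where Tgfbr2 was lower, but not all in the same direction. The 7 myoblast and cell cycle markers summed to 252 to 308 TPM in the controls, 85.8 to 150 at 1 Hz, 71.4 to 117 at 4 Hz and 223 to 280 at 10 Hz. Of the 7, Myod1, Pax7 and Cdh15 fell and Myf5 rose at both 1 and 4 Hz, the cell cycle genes Mki67 and Ccnb1 fell at 4 Hz, and none passed the test at 10 Hz. Most of the sum was Myod1, a master regulator of the muscle lineage, with 193 ± 17.6 TPM in the controls and 46 ± 10.8 at 4 Hz (log2(fold change) -1.75, adjusted p = 1.89e-13). Myf5, its close relative, stood at 9.96 ± 1.21 and 18 ± 2.6 TPM (log2(fold change) 1.17, adjusted p = 9.17e-08). The fibroblast list, with 5 of 7 genes tested, summed to 8.34 to 17.2 TPM over all libraries, and Pdgfra was the 1 called higher at 1 Hz (0.28) and at 4 Hz (0.36). Among the 10 myotube markers, Mylpf (0.57), Tnni2 (0.57) and Myh8 (0.37) rose at 4 Hz on the log2 scale and none passed the test at 1 or 10 Hz. Of all genes tested, 19.2% were higher and 18.1% lower at 1 Hz, 27.5% and 23.9% at 4 Hz, and 0.0376% were called at 10 Hz. The 3 of 10 myotube markers higher at 4 Hz are near the share of all genes and are no result about that list. The part of these cell type genes in the results on the pathway was not tested.

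The genes most like Tgfbr2 across the libraries were Ephb2, an ephrin receptor, and Sema6a, a guidance molecule. Pearson's r of log2 CPM over the 24 libraries was 0.981 and 0.98, and 0.847 and 0.799 after the mean of each condition was removed. At 1, 4 and 10 Hz the log2(fold change) of Ephb2 was -1.79, -1.97 and -0.25, and that of Sema6a -1.19, -1.14 and -0.10. These r values share the conditions, the libraries and their depth, and are given as a description.

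Tgfbr1, which encodes the type I partner on chr4:47353134-47414931, did not follow Tgfbr2. Its lowest, median and highest values were 37.2, 50.1 and 60.3 CPM in the controls, 42.2, 55 and 61.1 at 1 Hz, 30.9, 58.5 and 66.7 at 4 Hz, and 36.4, 52.7 and 66.8 at 10 Hz. The groups overlapped throughout. Its log2(fold change) against the control was 0.06 at 1 Hz (95% confidence interval -0.267 to 0.378), 0.10 at 4 Hz (-0.225 to 0.422) and 0.05 at 10 Hz (-0.271 to 0.374), with adjusted p of 0.805, 0.618 and 0.984. The sign of these small values depends on the scale: on log2(TPM + 1) they were -0.14 at 1 Hz and -0.25 at 4 Hz, again without passing the test.

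Inhba encodes the subunit of activin A and is the member with the most reads. It fell at 4 Hz, by 0.67 on the log2 scale. The gene lies at chr13:16186373-16206206. The lowest, median and highest values were 377, 476 and 557 CPM in the controls, 288, 368 and 461 at 1 Hz, 171, 292 and 404 at 4 Hz, and 336, 453 and 516 at 10 Hz. At 4 Hz 5 of 6 libraries were below every control, at 1 Hz 4 of 6, and at 10 Hz 2 of 6. The log2(fold change) at 4 Hz was -0.67 (SE 0.155, 95% confidence interval -0.993 to -0.353, adjusted p = 0.000985).

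At 1 Hz the log2(fold change) of Inhba was -0.34 (-0.657 to -0.0204), which missed the threshold with adjusted p = 0.0863. It passed when only the control and 1 Hz were in the fit (adjusted p = 0.0427), on log2(TPM + 1) (-0.50, adjusted p = 0.0477) and when 1 Hz replicate 3 was left out (-0.43, adjusted p = 0.043). At 10 Hz it was -0.10 (-0.419 to 0.217, adjusted p = 0.951). Inhba was higher at 10 Hz than at 4 Hz by 0.57 (adjusted p = 0.0045), whereas between 4 and 1 Hz the difference of -0.33 (-0.653 to -0.0153) had adjusted p = 0.433.

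Across the libraries Inhba was most like Ccnt1 (r = 0.942), a cyclin gene of transcription elongation, and Gabpa (r = 0.926), a transcription factor gene, and with condition means removed r was 0.906 and 0.882. Within conditions it also varied with Tgfbr1, with r = 0.725 after the condition means were removed and 0.442 before. With Tgfbr2, r was 0.702 over all libraries and 0.524 within conditions. These values, over 24 libraries of shared conditions and depths, are descriptions.

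Fst, the antagonist of activin and myostatin on chr13:114588731-114595521, did not pass the test at any frequency. The lowest, median and highest values were 40.2, 41.7 and 49.2 CPM in the controls, 40, 45.7 and 55.1 at 1 Hz, 35.6, 42.7 and 49 at 4 Hz, and 33.9, 45 and 53 at 10 Hz. The groups overlapped, and control replicate 2 stood apart from the other controls. The log2(fold change) was 0.13 (95% confidence interval -0.0635 to 0.328, adjusted p = 0.281), -0.01 (-0.209 to 0.186, adjusted p = 0.932) and 0.04 (-0.156 to 0.238, adjusted p = 0.978) at 1, 4 and 10 Hz. It was called lower at 4 Hz on log2(TPM + 1), at -0.37 (adjusted p = 0.0284).

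The log2 TPM ratio of Fst to Inhba within libraries was -1.78 ± 0.188 (SD, n = 6) in the controls and -1.36 ± 0.123 at 4 Hz. All 6 libraries at 4 Hz, at -1.49 to -1.19, lay above the highest control at -1.50. At 1 Hz the ratio was -1.37 ± 0.454 and at 10 Hz -1.63 ± 0.597, and both overlapped the controls. The ratio is a description and was not tested.

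Acvr2b encodes a type II receptor of activin and myostatin on chr9:119231103-119271213 and was read from 4 to 21 counts per library. It rose at 4 Hz. The lowest, median and highest values were 0.376, 0.889 and 1.07 CPM in the controls, 0.805, 1.3 and 1.99 at 1 Hz, 0.974, 1.72 and 2.16 at 4 Hz, and 0.846, 1.06 and 1.61 at 10 Hz. At 4 Hz 5 of 6 libraries were above every control, and at 1 Hz 3 of 6. The log2(fold change) was 1.02 (SE 0.27, 95% confidence interval 0.463 to 1.57, adjusted p = 0.00299) at 4 Hz, 0.71 (SE 0.273, 0.147 to 1.27, adjusted p = 0.0435) at 1 Hz and 0.47 (-0.106 to 1.05, adjusted p = 0.721) at 10 Hz.

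The call of Acvr2b at 1 Hz did not hold up. It was lost without control replicate 4, 5 or 6 (adjusted p of 0.1, 0.0624 and 0.0966), without 1 Hz replicate 1, 2 or 3 (0.0754, 0.116 and 0.122), with DESeq2 (0.0674), with only the 2 groups in the fit (0.0776) and without the filter on low counts (0.116). Neither frequency passed on log2(TPM + 1), with 0.33 (adjusted p = 0.209) at 1 Hz and 0.23 (adjusted p = 0.357) at 4 Hz. At 4 Hz the call held on every count-based alternative. A difference of Acvr2b between 10 and 4 Hz, -0.55 with adjusted p = 0.0944, passed without the 3 libraries named above (-0.63, adjusted p = 0.0462).

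The 3 TGF-β ligands differed little between conditions. Tgfb2, on chr1:186354985-186438294, was the one called changed. Its lowest, median and highest values were 42, 44.3 and 53.1 CPM in the controls, 52.1, 57.9 and 72.5 at 1 Hz, 43.4, 53.3 and 65.4 at 4 Hz, and 50.2, 52.2 and 56.8 at 10 Hz. At 1 Hz 5 of 6 libraries were above every control, at 4 Hz 3 of 6 and at 10 Hz 3 of 6. The log2(fold change) was 0.36 (SE 0.0912, 95% confidence interval 0.172 to 0.546, adjusted p = 0.00335) at 1 Hz, 0.22 (0.0285 to 0.405, adjusted p = 0.0499) at 4 Hz and 0.20 (0.01 to 0.386, adjusted p = 0.583) at 10 Hz. At 1 Hz the call held in every alternative on counts, and on log2(TPM + 1) the value was 0.05 (adjusted p = 0.868).

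The call of Tgfb2 at 4 Hz lay on the threshold. It was lost without control replicate 1, 3, 4 or 5 (adjusted p of 0.0913, 0.142, 0.111 and 0.125), without 4 Hz replicate 2, 3, 5 or 6 (0.0517, 0.135, 0.211 and 0.101), with DESeq2 (0.106), with RLE size factors (0.0851), with the replicate number as a block (0.0626), without the filter (0.203), with only the 2 groups in the fit (0.0907) and without the 3 libraries of low TPM to CPM ratio (0.0729). Its sign turned on log2(TPM + 1), to -0.13 (adjusted p = 0.561).

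Tgfb1, on chr7:25386390-25404506, and Tgfb3, on chr12:86102756-86126301, did not pass the test at any frequency. Tgfb1 ran from 52 to 59 CPM in the controls, with a median of 56.1, and had medians of 61.8, 64.6 and 62.1 at 1, 4 and 10 Hz. Its log2(fold change) was 0.15, 0.18 and 0.15 with adjusted p of 0.135, 0.0555 and 0.651, and 5, 4 and 5 of 6 libraries lay above every control. At 4 Hz it passed without 4 Hz replicate 3 or 6 (0.21 and 0.22, adjusted p of 0.0265 and 0.0273) and without the 3 libraries of low TPM to CPM ratio (0.23, adjusted p = 0.0092), and on log2(TPM + 1) it was -0.15 (adjusted p = 0.382).

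Tgfb3 ran from 73.3 to 97.7 CPM in the controls with a median of 89.5, and its medians at 1, 4 and 10 Hz were 82.4, 90.6 and 92.3. The groups overlapped. Its log2(fold change) was -0.10 (95% confidence interval -0.265 to 0.0553), 0.02 (-0.138 to 0.182) and 0.06 (-0.0964 to 0.224), with adjusted p of 0.298, 0.834 and 0.929. On log2(TPM + 1) it was called lower at both 1 and 4 Hz (-0.31 and -0.29, adjusted p of 0.0446 and 0.0381). Between 10 and 1 Hz the difference of 0.17 had adjusted p = 0.106, and 0.0438 without 1 Hz replicate 2. Ttll5, a protein-coding gene, overlaps Tgfb3 on the opposite strand. The library kit was directional, but how counting used the strand is not stated, so reads of Ttll5 may be included.

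Of the summed TPM of the 3 ligand genes, Tgfb1 gave 41.6% ± 2.64 (SD, n = 6), Tgfb3 40.1% ± 1.36 and Tgfb2 18.3% ± 1.72 in the controls. At 1 Hz, the share of Tgfb3 was 35.5% ± 1.6, and its 6 libraries (33.6% to 37.3%) lay below all controls (37.8% to 41.5%). At 4 Hz it was 37.5% ± 2.9, with 1 library at 43.3% above every control, and at 10 Hz 39.2% ± 1.08. The shares of Tgfb1 (43.7%, 43.2% and 43.1% at 1, 4 and 10 Hz) and Tgfb2 (20.9%, 19.3% and 17.7%) overlapped the controls. These shares were not tested.

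Mstn, the gene of myostatin on chr1:53100799-53107240, was read from few counts in every condition, at 2 to 18 per library. Its lowest, median and highest values were 0.178, 0.541 and 0.751 CPM in the controls, 0.447, 0.639 and 1.1 at 1 Hz, 0.456, 0.767 and 1.27 at 4 Hz, and 0.169, 0.298 and 0.783 at 10 Hz. All groups overlapped. In a fit without the filter on low counts, its log2(fold change) against the control was 0.39 (95% confidence interval -0.327 to 1.11), 0.47 (-0.268 to 1.2) and -0.63 (-1.45 to 0.186) at 1, 4 and 10 Hz, with adjusted p of 0.494, 0.413 and 0.768. The difference between 10 and 4 Hz was -1.10 (-1.91 to -0.282, adjusted p = 0.0503) in edgeR and -1.13 (adjusted p = 0.0402) in DESeq2, with 5 of 6 libraries at 10 Hz below all of 4 Hz. A change of Mstn smaller than these intervals was not detectable at this depth.

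Over the same 24 libraries, the genes most like the remaining members were Gnai2 and Cacnb3 for Tgfb1 (r = 0.905 and 0.887), Plod2 and Lims1 for Tgfb2 (0.855 and 0.85), and Chd3 and Olfml3 for Tgfb3 (0.839 and 0.825). For Tgfbr1 they were Arl5b and Rictor (0.877 and 0.869), for Acvr2b Cdc25b and Abca7 (0.801 and 0.801), and for Fst Btg3 and Ube2d3 (0.782 and 0.73). These r values are descriptions that share conditions, libraries and depth. Between tested members, r was 0.702 for Tgfbr2 with Inhba, 0.681 for Tgfb1 with Acvr2b and lower in every other pair. The genes named above are the highest among all genes tested, so their r cannot be set against these few pairs. Tgfbr1 with Tgfbr2 gave 0.0507, and 0.444 after the condition means were removed.

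**Figure D3:**
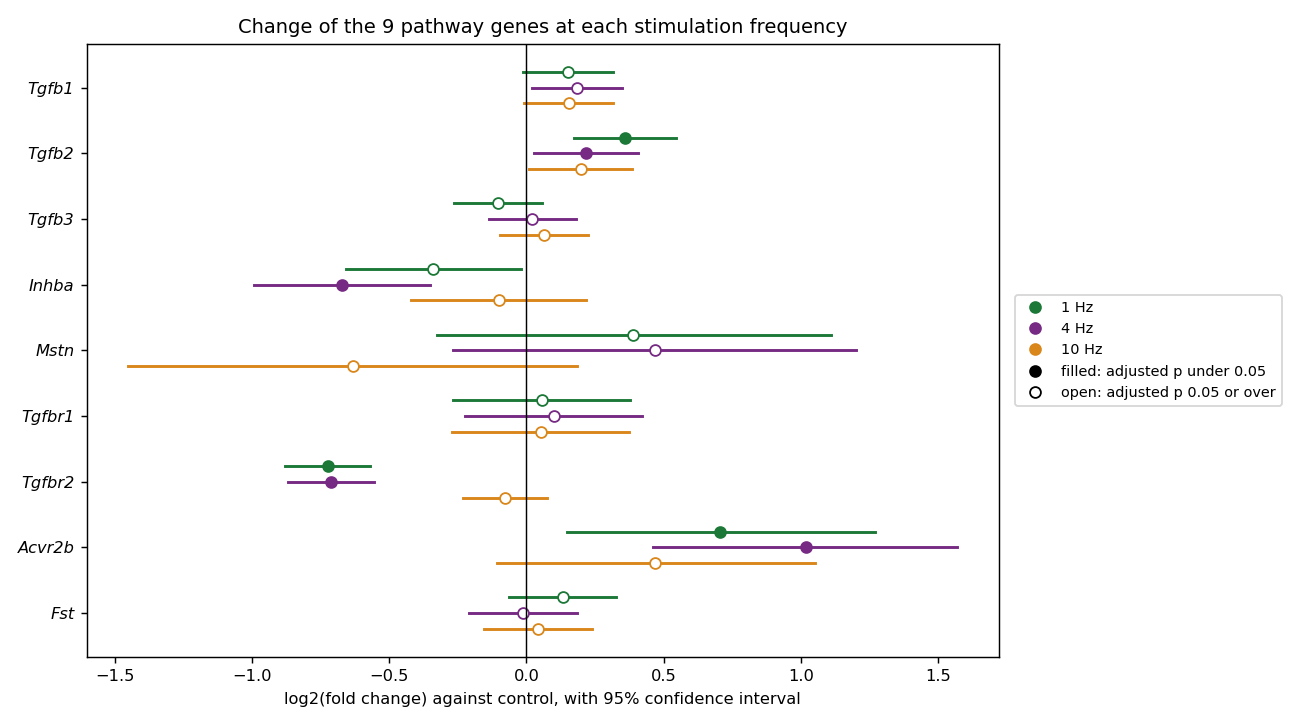
log2(fold change) against the control (x axis) of each of the 9 genes (y axis) at 1, 4 and 10 Hz, with 95% confidence intervals as lines; filled points passed adjusted p under 0.05. Tgfbr2 at 1 and 4 Hz, at -0.72 and -0.71, and Inhba at 4 Hz, at -0.67, lie left of 0, and every interval at 10 Hz except that of Tgfb2 (0.01 to 0.386) includes 0.

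Counted over the 8 tested members, 2 were higher and 1 lower at 1 Hz, beside 37.3% of all genes tested that changed there (19.2% higher and 18.1% lower). At 4 Hz 2 were higher and 2 lower, beside 51.4% of all genes (27.5% higher and 23.9% lower). The shares of members called, 37.5% and 50%, were near those of all genes and are no result about the members as a group. With an absolute log2(fold change) over 0.5 as well, 2 members were called at 1 Hz (14.9% of all genes) and 3 at 4 Hz (25.1%). The CPM of 1 member, Tgfbr2, did not overlap the controls and was lower, beside 8.58% of all genes at 1 Hz and 14.7% at 4 Hz.

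At 10 Hz no member was called in edgeR, beside 0.0376% of all genes. Among the members only Tgfb2 had an unadjusted p under 0.05 there, as did 8.07% of all genes, and no member was called by DESeq2 or on log2(TPM + 1). Between 4 and 1 Hz edgeR called no member and 0% of all genes. An unadjusted p under 0.05 was found there for 11% of all genes and for 1 member, Inhba, and DESeq2 and limma called no member. Between 10 and 1 Hz 1 member was higher (14.8% of all genes were higher), and between 10 and 4 Hz 2 were higher (21.9%). In both, 1 member was higher without overlap in CPM, beside 5.03% and 10.8% of all genes.

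The split of the calls depends on the scale. On log2(TPM + 1), tested with limma, 0 members were higher and 3 lower at 1 Hz, and 0 higher and 4 lower at 4 Hz. Of all 13422 genes tested on that scale, 3414 and 5600 were called at 1 and 4 Hz in either direction. The directions of those calls were not counted, so the split is no result about the members as a group. On that scale the median of all genes tested was -0.14 at 1 Hz and -0.21 at 4 Hz, against 0.04 and 0.06 after TMM scaling. Against those medians, Tgfbr2 (-0.94 and -0.95) and Inhba (-0.50 and -0.79) lay below on both scales. On log2(TPM + 1), Tgfb3 (-0.31 and -0.29) and Fst at 4 Hz (-0.37) were also called lower. The test is against 0 and not against the median. These values lay below the median, that of Tgfb3 at 4 Hz only slightly. Acvr2b (0.33 and 0.23) and Tgfb2 at 1 Hz (0.05) lay above it without passing. Tgfb2 at 4 Hz (-0.13), Tgfb1 (-0.07 and -0.15), Tgfbr1 (-0.14 and -0.25) and Fst at 1 Hz (-0.10) lay close to it.

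**Figure D4:**
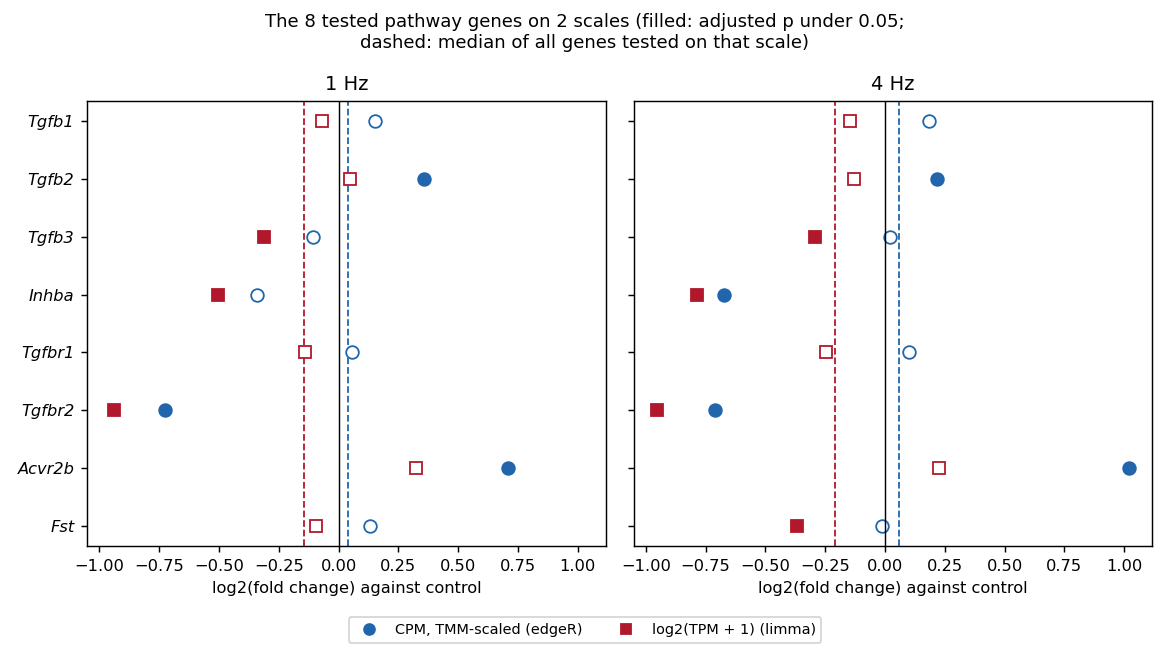
log2(fold change) against the control (x axis) of the 8 tested genes (y axis) at 1 Hz (left) and 4 Hz (right), from TMM-scaled counts (circles) and from log2(TPM + 1) (squares). Filled symbols passed adjusted p under 0.05 and dashed lines mark the median of all genes on each scale; Tgfbr2 is filled on both scales and in both panels, whereas Tgfb2 and Acvr2b are filled only on counts.

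The other genes of the pathway were described by 6 lists, drawn up by role. Among the other ligands, 3 of 10 were tested, and Gdf11, the closest relative of Mstn, was the 1 called at both 1 Hz and 4 Hz, lower at each. It stood at 16.7 ± 1.77 CPM in the controls, 11.8 ± 1.59 at 1 Hz and 11.3 ± 2.79 at 4 Hz (log2(fold change) -0.51 and -0.58, adjusted p of 0.00248 and 0.000551). Inha, the inhibin alpha subunit, and Inhbb, the activin B subunit, were the other ligands tested. Inha, named after its values were seen, was at 0.47 at both frequencies (adjusted p of 0.0649 and 0.055). It passed at 1 Hz when control replicate 1 or 1 Hz replicate 1 was left out (0.60 and 0.54, adjusted p of 0.0247 and 0.042), and at 4 Hz when control replicate 1 or 4 Hz replicate 2 was left out (0.60 and 0.56, adjusted p of 0.019 and 0.0271), which makes 2 ligands called in each case. Inhbb passed at 1 Hz without the 3 libraries of low TPM to CPM ratio (0.43, adjusted p = 0.0254). The medians of the 3 ligands were 0.20 and 0.04. When single libraries were left out they ran from 0.103 (without 1 Hz replicate 3) to 0.295 (without 1 Hz replicate 6), and from -0.0966 (without 4 Hz replicate 5) to 0.101 (without 4 Hz replicate 1), so the sign at 4 Hz is not fixed.

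Among the other receptors, 7 of 8 were tested. At 1 Hz 2 were higher and 1 lower, and at 4 Hz 4 were higher and 1 lower. Over all genes tested, 19.2% were higher and 18.1% lower at 1 Hz, and 27.5% and 23.9% at 4 Hz. Tgfbr3, the co-receptor betaglycan that presents TGF-β2 to TGFBR2, rose from 10 ± 1.36 CPM in the controls to 17.2 ± 3.64 at 1 Hz and 16.4 ± 2.94 at 4 Hz (log2(fold change) 0.78 and 0.72, adjusted p of 7.61e-05 and 0.000109). Its libraries at 1 Hz (13 to 22.7 CPM) and 4 Hz (13.2 to 19.4) lay above all controls (8.63 to 11.7). Of all genes, 5.55% and 12.9% were higher without overlap at these frequencies. Bambi, a decoy receptor that lacks a kinase, was higher by 0.81 at 1 Hz (adjusted p = 0.0069), though not without the 3 libraries of low TPM to CPM ratio (0.54, adjusted p = 0.104). Acvrl1, a type I receptor known from endothelium, was higher at 4 Hz by 0.84 (adjusted p = 0.00088). Bambi (0.94, adjusted p = 0.00147) and the endothelial co-receptor gene Eng (0.68, adjusted p = 0.00313), named after their values were seen, were the others higher at 4 Hz.

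Acvr2a, the other type II receptor of activin and myostatin, fell at 1 and 4 Hz. The rise of Acvr2b, read from few counts, did not hold up at 1 Hz and passed at neither frequency on log2(TPM + 1). Acvr2a stood at 36.9 ± 2.97 CPM in the controls, 27.4 ± 3.85 at 1 Hz and 22.8 ± 5.76 at 4 Hz (log2(fold change) -0.43 and -0.69, adjusted p of 0.00975 and 9.27e-05). All 12 libraries of 1 and 4 Hz, at 23 to 32.8 and 13.7 to 30.9 CPM, were below the lowest control at 34.3 CPM. The receptor list's median was 0.31 at 1 Hz and 0.68 at 4 Hz, above the 0.04 and 0.06 of all genes. The value at 1 Hz was 0.128 without 1 Hz replicate 4. On log2(TPM + 1) only 1 receptor was called at each frequency, lower, and Tgfbr3 (0.44, adjusted p = 0.0607, and 0.29, adjusted p = 0.174) and Acvrl1 at 4 Hz (0.40, adjusted p = 0.0961) did not pass. Of all 13422 genes on that scale, 3414 were called at 1 Hz and 5600 at 4 Hz.

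Of 18 genes that hold TGF-β latent or activate it, 13 were tested, with 2 higher and 2 lower at 1 Hz and 3 higher and 2 lower at 4 Hz, beside 37.3% and 51.4% of all genes called in either direction. Furin, the protease that cuts the TGF-β precursors, fell from 79 ± 7.97 CPM to 54.4 ± 7.74 at 1 Hz and 52.1 ± 6.08 at 4 Hz (log2(fold change) -0.54 and -0.60, adjusted p of 0.000172 and 3.08e-05), with every library below all controls. Emilin1, a matrix protein that limits TGF-β maturation, was higher by 0.41 and 0.53 (adjusted p of 0.00709 and 0.000587). Thbs1, which encodes the latent TGF-β activator thrombospondin 1, was higher by 0.65 at 1 Hz (adjusted p = 0.00691). Bmp1, a secreted protease named after its values were seen, was the other gene higher at 4 Hz, by 0.26 (adjusted p = 0.0377).

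Several latency calls were weak. Thbs1 at 4 Hz (0.49, adjusted p = 0.0261) was lost without control replicate 1, 3, 4 or 6 (adjusted p of 0.0592, 0.0559, 0.0597 and 0.0605) or 4 Hz replicate 2, 3 or 5 (0.0659, 0.0572 and 0.0703), and without the filter (0.116). Neither Thbs1 (0.39 and 0.15, adjusted p of 0.243 and 0.662) nor Emilin1 (0.20 and 0.40, adjusted p of 0.454 and 0.0835) passed at 1 or 4 Hz on log2(TPM + 1). Itgb8, a subunit of a TGF-β activating integrin, was lower by 0.30 at 1 Hz (log2 value -0.30, adjusted p = 0.0448) and lost the call without any of control replicates 2, 4, 5 and 6 or 1 Hz replicates 3, 4, 5 and 6 (adjusted p of 0.0535 to 0.137), without the 3 libraries of low TPM to CPM ratio (-0.28, adjusted p = 0.117), without the filter (adjusted p = 0.0511) and with the replicate block (adjusted p = 0.0672). Ltbp2, a latent TGF-β binding protein family gene, was lower at 4 Hz (-0.57, adjusted p = 0.0182), but not without control replicate 2 (-0.46, adjusted p = 0.059). The list's count at 4 Hz was 3 without control replicate 1, 3 or 4 or 4 Hz replicate 5. Of the list, 0 were higher and 3 lower at 4 Hz on log2(TPM + 1), beside 5600 of 13422 genes called there in either direction.

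Among the extracellular antagonists, 5 of 8 were tested, with 2 higher and 1 lower at both 1 and 4 Hz, again beside 37.3% and 51.4% of all genes. The lower 1 was Fmod, whose few counts are given below. Fstl3, a follistatin relative that binds activin and myostatin, rose from 91.7 ± 5.85 CPM in the controls to 114 ± 5.79 at 1 Hz and 123 ± 8.46 at 4 Hz (log2(fold change) 0.31 and 0.42, adjusted p of 0.000197 and 2.58e-06). Every library at 1 and 4 Hz, from 106 CPM upward, was above every control, the highest of which stood at 97.9 CPM. At 10 Hz Fstl3 was at 107 ± 3.85 CPM with adjusted p = 0.178 in edgeR. Its 10 Hz libraries, from 103 to 113 CPM, likewise all exceeded the highest control, although the edgeR test was not passed. Of all genes, 0.774% were higher without overlap at that frequency. Dcn, which encodes the TGF-β binding proteoglycan decorin, was higher by 0.39 (adjusted p = 0.0188) and 0.43 (adjusted p = 0.00644), and lost the call at 1 Hz without control replicate 3 or 1 Hz replicate 3 (0.33 and 0.23, adjusted p of 0.0511 and 0.0969), and without the filter (0.35, adjusted p = 0.0569). No antagonist was called on log2(TPM + 1), with Fstl3 at 0.14 (adjusted p = 0.336) and 0.10 (adjusted p = 0.464).

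Fmod, the gene of the proteoglycan fibromodulin, had 0 to 2 counts per library at 4 Hz, 2 to 5 at 1 Hz and 2 to 64 in the controls, where the 64 came from control replicate 2. At 10 Hz it had 7 to 28 counts, and it fell below the filter when only the control and 1 Hz, or only the control and 4 Hz, were in the fit, so it was not tested there. In the fit of all conditions it was called lower at both 1 and 4 Hz (log2(fold change) -1.96 and -3.31, adjusted p of 0.00726 and 0.000362). Its pass of the filter there rested on libraries of other conditions than 1 and 4 Hz. These calls are therefore no support for a fall of Fmod. Without control replicate 2 the call at 1 Hz was lost (-1.19, adjusted p = 0.0583), as it was without the 3 libraries of low TPM to CPM ratio (-1.51, adjusted p = 0.0672).

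Among the SMAD signal carriers and brakes, more of the called genes were lower than higher. Of 16 tested, 1 was higher and 6 lower at 1 Hz, and 1 higher and 9 lower at 4 Hz, beside 18.1% and 23.9% of all genes called lower. The medians were -0.20 and -0.24 against 0.04 and 0.06 over all genes, and that at 1 Hz was -0.0351 without the 3 libraries of low TPM to CPM ratio. The list joins carriers and brakes of the signal, so its median is no measure of signal strength. The carrier genes Smad2 and Smad3, named after their values were seen, were not called at 4 Hz in edgeR. On log2(TPM + 1), tested with limma, both were called lower there (-0.47 each, adjusted p of 0.0185 and 0.0267). Pmepa1, a TGF-β induced gene whose product keeps SMAD2 and SMAD3 from the receptor, fell from 234 ± 40.3 CPM in the controls to 106 ± 25.4 at 1 Hz and 74.5 ± 25.7 at 4 Hz (log2(fold change) -1.14 and -1.65, adjusted p of 5.33e-05 and 3.57e-07). All stimulated libraries of 1 and 4 Hz, up to 149 and 114 CPM, were below the lowest control at 179 CPM, and at 10 Hz they stood at 206 to 287 CPM. Tgif2, a corepressor of SMAD targets, fell by 1.08 at 1 Hz and 1.36 at 4 Hz (adjusted p of 3.99e-06 and 1.43e-07), from 6.42 ± 1.17 CPM to 3.04 ± 0.464 and 2.48 ± 0.403. The ubiquitin ligase gene Smurf2 (-0.52 and -0.67), the corepressor gene Ski (-0.34 and -0.35), Zfyve9 (-0.27 and -0.29), whose product anchors SMAD2 and SMAD3 at the membrane, and Usp15 (-0.25 and -0.27), which encodes a deubiquitinase, were also lower at both frequencies and were named after their values were seen.

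Smad7, the inhibitory SMAD, went the other way, from 23.7 ± 7.97 CPM to 37.2 ± 10.8 at 1 Hz and 40.9 ± 6.47 at 4 Hz (log2(fold change) 0.65 and 0.78, adjusted p of 0.0409 and 0.0106). The groups overlapped, with 13.2 to 31.6 CPM in the controls and 31.3 to 51 at 4 Hz. The call of Smad7 at 1 Hz was lost without control replicate 3, 4 or 5 (adjusted p of 0.089, 0.0878 and 0.0862) or 1 Hz replicate 1, 2, 3, 4 or 6 (0.0638, 0.0681, 0.093, 0.0881 and 0.065). It was also lost without the 3 libraries of low TPM to CPM ratio (0.61, adjusted p = 0.126), without the filter (0.121), with only the 2 groups in the fit (0.062) and with the replicate block (0.0809). Smad7 did not pass at 1 or 4 Hz on log2(TPM + 1) (0.36 and 0.53, adjusted p of 0.325 and 0.104).

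Of 26 genes known to respond to TGF-β in other settings, 24 were tested, and they did not move in one direction. At 1 Hz 4 were higher and 5 lower, and at 4 Hz 5 higher and 7 lower, near the 37.3% and 51.4% of all genes called. The medians of 0.15 and 0.07 ranged from 0.0589 (without 1 Hz replicate 3) to 0.178, and from 0.0124 (without 4 Hz replicate 5) to 0.116, when single libraries were left out. Ccn2, which encodes connective tissue growth factor, had the largest rise of the list, from 585 ± 107 CPM to 1396 ± 299 at 1 Hz and 1183 ± 280 at 4 Hz (log2(fold change) 1.25 and 1.02, adjusted p of 4.92e-06 and 3.03e-05). Its libraries, from 1058 CPM at 1 Hz and 791 CPM at 4 Hz upward, were above the highest control at 727 CPM. The same held for 5.55% and 12.9% of all genes. Timp1, a metalloproteinase inhibitor, was higher by 0.33 and 0.39 (adjusted p of 0.00982 and 0.00171), but not on log2(TPM + 1) (0.11 and 0.06, adjusted p of 0.403 and 0.65). Adam12, a metalloprotease of fusing myoblasts, fell at 1 and 4 Hz (log2(fold change) -1.96 and -2.17, adjusted p of 1.1e-05 and 2.44e-06), from 6.67 ± 2.64 CPM to 1.77 ± 0.839 and 1.49 ± 0.324. Pmepa1 and Smad7 also belong to this list. The collagen gene Col1a1 (-0.70 and -0.71) and the tendon factor Scx (-0.28 and -0.39), named after their values were seen, were lower at both frequencies.

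Over the 6 lists together, each gene counted once, 10 were higher and 15 lower at 1 Hz and 14 higher and 19 lower at 4 Hz, and none passed at 10 Hz in edgeR, beside 37.3%, 51.4% and 0.0376% of all genes. DESeq2 called 1 at 10 Hz, Fstl3 (0.22, adjusted p = 0.018). On log2(TPM + 1) the split was 1 higher and 15 lower at 1 Hz and 1 higher and 23 lower at 4 Hz. On that scale 3414 and 5600 of all 13422 genes were called, and the medians of all genes were -0.144 and -0.209. The directions of those calls were not counted, so this split is no result about the lists. Genes that passed in the same direction on both scales at 1 and 4 Hz include Ccn2 (higher), and Gdf11, Acvr2a, Furin, Tgif2, Pmepa1 and Adam12 (lower). The lists share libraries and were chosen by function, and nothing is called particular to them.

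**Figure D5:**
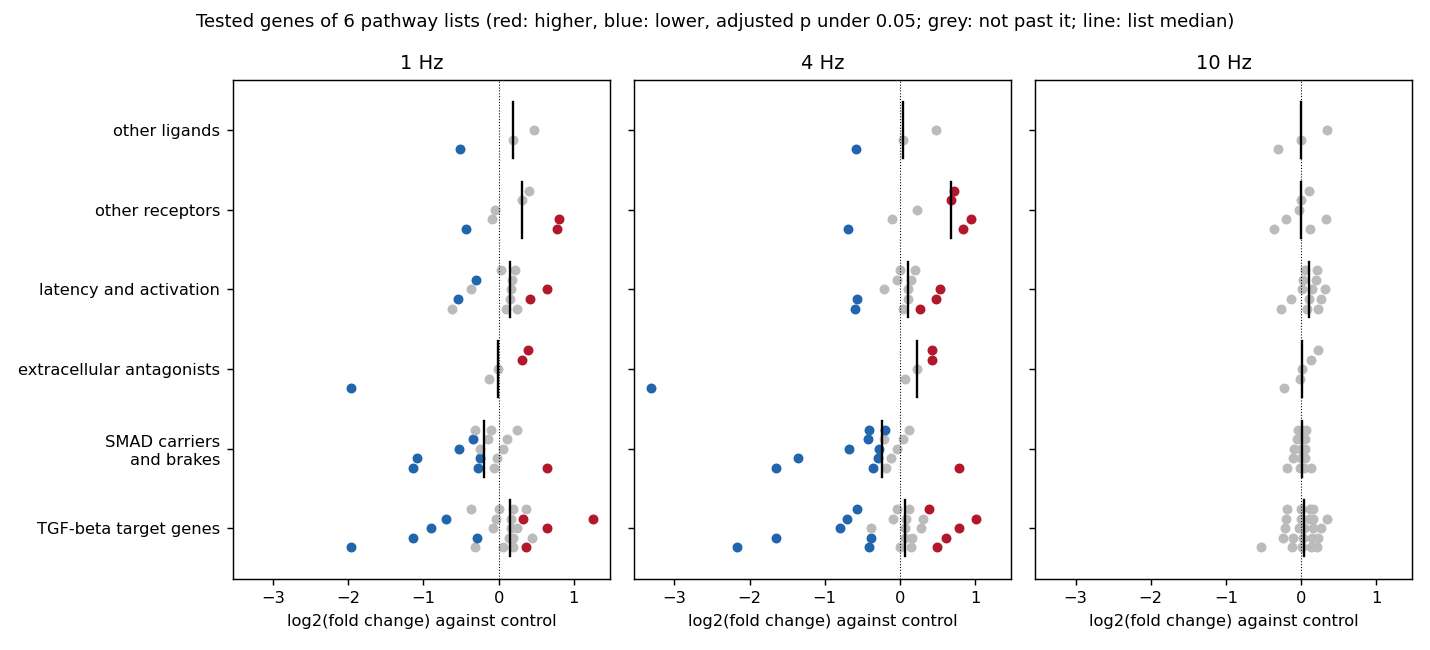
log2(fold change) against the control (x axis) of each tested gene of the 6 lists (y axis) at 1, 4 and 10 Hz (panels); red and blue points passed adjusted p under 0.05, grey points did not, and black lines mark list medians. Colored points stand at 1 and 4 Hz, where the SMAD list has medians of -0.20 and -0.24, and no point is colored at 10 Hz.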

How the data were processed

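RNA of the 24 libraries was sequenced by the authors in 50-base paired reads. The authors deposited gene-level estimated counts from salmon, without normalization. The authors also deposited TPM from salmon, in which reads are divided by transcript length and every library is scaled to a sum of 1e+06. The study's methods name a directional library kit with poly(A) selection, the nf-core/rnaseq pipeline and GRCm39. The submitters' processing notes also name STAR, BWA 0.7.12-r1039 and bedtools 2.25.0. Low-input samples were depleted of ribosomal RNA, and the labels do not say which ones these were.

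The members and the gene lists were chosen with earlier results of these data known. Estimated counts, 6.15% of which were not whole (off by over 0.001), were rounded. The filter was filterByExpr with a minimum count of 10 and a minimum total of 15, after which libraries were scaled by TMM and genes tested in edgeR 4.0.16 (R 4.3.3) by a robust quasi-likelihood F test, in 1 fit with a mean per condition, with Benjamini-Hochberg adjustment over all genes tested. Called means adjusted p under 0.05. CPM is per 1e+06 counts after TMM scaling, and log2 CPM used a prior count of 2. A gene's groups do not overlap when every library of one lies beyond every library of the other. Against the control, 5.55% of all genes were higher and 8.58% lower without overlap at 1 Hz, and 12.9% and 14.7% at 4 Hz. The tests were checked on simulated data. Replicates are called biological replicates by the study, and the p-values measure the spread between these 6 libraries per condition. Libraries of a condition differed by more than sampling noise (lowest chi-square per gene 4.75).

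Named genes are the 9 members, up to 2 called genes per direction with the smallest p from each list and each comparison with the control, and the 2 genes of highest Pearson r with each tested member. Marker genes are named where called, after their values were seen, and others are marked as such. Smad7, Skil, Pmepa1 and Ltbp2 stand in 2 lists. Alternatives were RLE size factors, no filter, a fit of the 2 compared groups alone, a block for the replicate number, DESeq2 1.42.0, limma 3.58.1 on log2(TPM + 1) and log2(TPM + 0.1) for genes at 1 TPM in 6 libraries, leaving out each library, and, chosen after seeing the data, leaving out 3 libraries of low TPM to CPM ratio. Promoter windows and positions came from GRCm39 and GENCODE M39, in place of the planned RefSeq windows, which are of GRCm38.p6 and partly lay in annotated transcripts. Protein sequences were not used here. The library kit was directional, but how counting used the strand is not stated in the sources used here. On the opposite strand, 7 of the 9 members and 26 of the 35 other named genes overlap a gene. Its reads may be included if counting ignored the strand.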

Additional observations from a re-analysis of the deposited data

Results flagged for a closer look

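Among 112 groups of 6 libraries, 5 held a library that stood apart from the others by Dixon's test of the gap over the range, at its 95% critical value, and chance gives about 1 in 20. Fst was at 49.2 CPM in control replicate 2, against 40.2 to 43 CPM in the other controls. Fstl3 was at 80.5 CPM in control replicate 3, against 92.1 to 97.9 CPM in the other controls. Dcn was at 286 CPM in 1 Hz replicate 3, against 161 to 195 CPM in the other libraries of 1 Hz. Fmod was at 2.63 CPM in 10 Hz replicate 4, against 0.783 to 1.33 CPM in the others of 10 Hz. Smad7 was at 16.5 CPM in 1 Hz replicate 5, against 36.2 to 47.9 CPM in the others of 1 Hz. The cause was not tested.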

How the results depend on the processing

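The calls of Tgfbr2 at 1 and 4 Hz and of Inhba at 4 Hz held under every alternative run. Of the values that turned sign, only those of Tgfb3 on TPM passed the test. Against the control at 4 Hz, Tgfb3 turned to -0.00399 with RLE, -0.0224 without the filter, -0.00495 with only the 2 groups, -0.0113 in DESeq2, -0.0105 without the 3 libraries, and -0.294 and -0.301 on log2(TPM + 1) and log2(TPM + 0.1), both with adjusted p = 0.0381. On these TPM scales, in the same order, Tgfb1 was at -0.0675 and -0.0696 at 1 Hz and -0.148 and -0.152 at 4 Hz, Tgfb2 at -0.129 and -0.137 at 4 Hz, Tgfbr1 at -0.14 and -0.151 at 1 Hz and -0.246 and -0.268 at 4 Hz, and Fst at -0.095 and -0.0974 at 1 Hz. Between 4 and 1 Hz, Tgfb1 was at -0.08 and -0.0821, Tgfbr1 at -0.106 and -0.117, Tgfbr2 at -0.0162 and -0.0151 and Acvr2b at -0.099 and -0.191. Between 10 and 1 Hz, Tgfbr1 was at 0.192 and 0.205 and Fst at 0.115 and 0.117. Between 10 and 4 Hz, Tgfb1 was at 0.279 and 0.286, Tgfb2 at 0.163 and 0.173 and Tgfbr1 at 0.298 and 0.321. On counts, Tgfbr2 between 4 and 1 Hz was at -0.00465 (RLE), -0.00457 (DESeq2) and -0.0994 (without the 3 libraries), Tgfbr1 between 10 and 1 Hz at 0.00151 (RLE), 0.0197 (no filter) and 0.00273 (DESeq2), Tgfb2 between 10 and 4 Hz at 0.00291 (RLE), 0.0154 (no filter), 0.00507 (2 groups), 0.00774 (DESeq2) and 0.000833 (without the 3 libraries), and Tgfb1 between 10 and 4 Hz at 0.00438 (no filter). Without the 3 libraries, Tgfb1 was at -0.0416 and Fst at 0.00699 between 10 and 1 Hz. Leaving out each library in turn moved Tgfb3 at 4 Hz from -0.0428 to 0.0538, Fst from -0.0643 to 0.0323 at 4 Hz and -0.019 to 0.108 at 10 Hz, and Tgfbr1 from -0.0178 to 0.109 at 1 Hz and -0.028 to 0.14 at 10 Hz. Between frequencies it moved Tgfb1 from -0.0288 to 0.0813 (4 and 1 Hz), -0.0152 to 0.0317 (10 and 1 Hz) and -0.0652 to 0.0493 (10 and 4 Hz), Tgfb2 from -0.0534 to 0.06 (10 and 4 Hz), Tgfbr1 from -0.0238 to 0.162, -0.0836 to 0.0833 and -0.147 to 0.0595 in the same order of pairs, and Tgfbr2 from -0.0358 to 0.0444 (4 and 1 Hz). The number of members called was 2 between 10 and 1 Hz and 4 between 10 and 4 Hz on both TPM scales, against 1 and 2, and ran from 1 to 2 between 10 and 1 Hz when single libraries were left out. Of 13422 genes, log2(TPM + 1) called 2372 and 5138 in these 2 comparisons, and log2(TPM + 0.1) 2306 and 5092. Over the 6 lists, 16 and 15 genes were called at 1 Hz on the TPM scales, against 25, and DESeq2 called 1 at 10 Hz. The TPM scales called 3414 and 3356 of all 13422 genes at 1 Hz, against 4962 of 13315 in edgeR. Over all genes at 10 Hz, edgeR called 5, DESeq2 61, limma 0, the fit of 2 groups 58 and edgeR without the 3 libraries 25. Between 4 and 1 Hz these were 0, 39, 0, 0 and 389, and between 10 and 1 Hz limma on log2(TPM + 1) called 2372 against 3713. With the replicate block, 3 members were called at 4 Hz in place of 4, since Tgfb2 did not pass, the lists had 22 and 31 calls at 1 and 4 Hz, and Itgb8 (adjusted p = 0.0672) and Smad7 (0.0809) lost their calls at 1 Hz, while Tgfbr1 between 10 and 1 Hz turned to 0.00317, and the block changed no other call of a named gene. The numbers do not pair the libraries: r of same-numbered libraries, over 36 pairs, ran from -0.761 to 0.571 with a median of -0.103, and 4 libraries correlated best with their own number. The cause of these differences was not tested. Acvr2b and Mstn are limited by their few counts.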
